A study of Mus musculus with 6 samples.

Results

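The genes described here are 6 mouse genes known as responsive to interleukin 4 and as marks of alternative activation in macrophages: Chil3, Retnla, Il4ra, Clec10a, Clec7a and Tgm2. They were taken by symbol from a gene count table of 21878 genes, in which all 6 were found, and all 6 passed the filter on low counts that left 12136 genes for testing. RNA of sorted tumour-associated macrophages was sequenced in 6 libraries. The 3 KO libraries came from Trmt61a f/f LysmCre mice, whose Cre recombinase is driven by the lysozyme M locus of myeloid cells, and the 3 WT libraries from Trmt61a f/f mice, which carry the same floxed alleles without the Cre. All mice had received MC38 cells, a mouse colon carcinoma line, and tumours were taken at day 14. The age and sex of the mice, the sorting gate, and whether each library stands for 1 mouse or for a pool are not given in the sources used here. For this reason p-values refer to the differences among these libraries, part of which may be technical. Trmt61a encodes the catalytic subunit of the methyltransferase that makes m1A in tRNA, and the study asks how its loss affects macrophages in tumours.

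Interleukin 4 and interleukin 13 act on macrophages through the receptor chain encoded by Il4ra, which pairs with the common gamma chain (Il2rg) or with Il13ra1. JAK kinases on these chains phosphorylate STAT6, which enters the nucleus and binds DNA at inverted repeats of TTC and GAA. Chil3 (the secreted chitinase-like protein Ym1) and Retnla (the secreted resistin-like protein FIZZ1) are classical products of this pathway in the mouse, and macrophages of tumours often carry part of the same programme.

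Promoters from RefSeq (GRCm38.p6, 250 bases before to 50 bases after the start) were found for 4 of the 6 genes: Chil3, Retnla, Il4ra and Clec7a. Those of Retnla, Clec7a and Chil3 are printed because they hold a STAT-like match. Whether these matches bear on the levels of the genes was not tested. Each runs 5′ to 3′ on the strand of its gene, and capitals mark matches to TTCNNNNGAA (the spacing STAT6 prefers), TTCNNNGAA (the spacing of other STAT proteins) and TTGCNNAA (a C/EBP site).
Retnla, chr16:48842359-48842658, plus strand: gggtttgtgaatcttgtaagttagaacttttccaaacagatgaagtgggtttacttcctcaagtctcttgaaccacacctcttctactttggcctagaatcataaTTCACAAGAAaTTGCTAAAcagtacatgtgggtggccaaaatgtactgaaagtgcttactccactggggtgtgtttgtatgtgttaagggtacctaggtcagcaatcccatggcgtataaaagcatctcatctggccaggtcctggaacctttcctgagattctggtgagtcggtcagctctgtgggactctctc
Clec7a, chr6:129472730-129473029, minus strand: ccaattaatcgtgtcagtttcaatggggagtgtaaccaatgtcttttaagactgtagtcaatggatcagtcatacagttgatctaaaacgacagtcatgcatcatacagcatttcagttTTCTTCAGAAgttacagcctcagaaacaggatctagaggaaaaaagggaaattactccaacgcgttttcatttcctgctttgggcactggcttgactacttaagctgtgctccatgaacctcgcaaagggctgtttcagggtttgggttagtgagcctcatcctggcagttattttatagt
Chil3, chr3:106167515-106167814, minus strand: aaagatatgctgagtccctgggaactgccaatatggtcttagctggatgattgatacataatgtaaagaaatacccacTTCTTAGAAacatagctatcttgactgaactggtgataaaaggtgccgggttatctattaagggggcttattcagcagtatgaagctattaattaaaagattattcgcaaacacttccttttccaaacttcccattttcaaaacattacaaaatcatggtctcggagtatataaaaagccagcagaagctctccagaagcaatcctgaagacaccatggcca

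The Retnla promoter held TTCACAAGAA at 145 bases before the start, followed after 1 base by the C/EBP match TTGCTAAA, which begins 134 bases before the start. It also held the PU.1 match CTTCCTC at 197 bases before the start, left in lower case. In Clec7a the match was TTCTTCAGAA, 131 bases before the start, and in Chil3 it was TTCTTAGAA, of the shorter spacing, 172 bases before it. Il4ra had no match to these 3 motifs or to GAGGAAG (PU.1) in its window. Both strands were searched, and both STAT motifs read the same on either strand. Of 32851 RefSeq promoters of the same length, 6.95% held TTCNNNNGAA, 8.3% TTCNNNGAA, 10.8% TTGCNNAA and 13.6% GAGGAAG, so such matches occur in many promoters and only describe these windows.

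Library totals ran from 18839026 to 20313597 counts, so 3 counts correspond to 0.148 to 0.158 CPM (the unit of level used here, counts scaled to the library total after TMM normalization), and all 6 genes lay far above that. Trmt61a followed the labels, at 8.01, 6.95 and 7.38 CPM in the WT libraries and 2.13, 1.73 and 2.46 CPM in the KO libraries (log2 fold change -1.81, SE 0.197, edgeR adjusted p = 0.0426). In 8 of 15 alternative settings its adjusted p did not fall under 0.05, although its log2 value stayed between -1.94 and -1.69. A gene that does not pass this threshold may therefore still differ. All 8 macrophage markers were detected, and they summed to 8120 to 9408 CPM in WT and 7494 to 8138 CPM in KO. Among them C1qa, C1qb and C1qc were lower in KO without overlap between groups (edgeR adjusted p = 0.703, 0.717 and 0.701). Of all tested genes 12.4% did not overlap. The groups overlapped for Adgre1, Csf1r, Cd68, Mertk and Fcgr1. KO replicate 2 and WT replicate 1 lay at opposite ends of the first principal component (32% of the variance), at 29.4 and -18 where the others lay between -6.46 and 5.26. On the second (25.4%) WT replicate 1 was highest at 20.8 and KO replicate 1 lowest at -15.6. KO replicate 2 had the highest sums of T and NK cell markers (51.1 CPM against 19.5 to 32.8), of dendritic cell markers (43 CPM against 18.8 to 31.8) and of neutrophil markers (98.4 CPM against 53.9 to 68.9). In that library Ccr7 alone gave 23.7 CPM of the dendritic sum and Csf3r 60.3 CPM of the neutrophil sum. Single markers did not all follow these 2 sums. S100a8 and Cd209a were highest in KO replicate 2, but Mmp8 was highest in KO replicate 3 (18.4 CPM against 15.4 in KO replicate 2). Clec9a was highest in WT replicate 3 (4.59 CPM against 2.2). In bulk samples, fewer cells that express a gene and less RNA per cell cannot be told apart.

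The RNA of the 6 genes was not detectably different between KO and WT macrophages. Log2 fold changes were negative for Chil3, Clec7a and Tgm2 and positive for Retnla, Il4ra and Clec10a, and for every one of the 6 genes the KO and WT libraries overlapped. The sign turned for Chil3, Clec7a, Il4ra and Clec10a when 1 library was left out, as given with each gene. With edgeR 0 of 6 passed an adjusted p under 0.05, where 0.0165% of all tested genes passed, and 0 of 6 had an unadjusted p under 0.05, where 6.92% of all tested genes did. DESeq2 and limma-voom also called 0 of 6. The groups did not overlap in 12.4% of all tested genes, against 0 of these 6. The median log2 fold change was -0.0012 over the 6 genes and -0.00088 over all tested genes. The 6 genes differed from each other in the spread between libraries of one genotype. It was widest for Retnla and Chil3 and smallest for Tgm2, which lay slightly above the median gene.

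**Figure D1:**
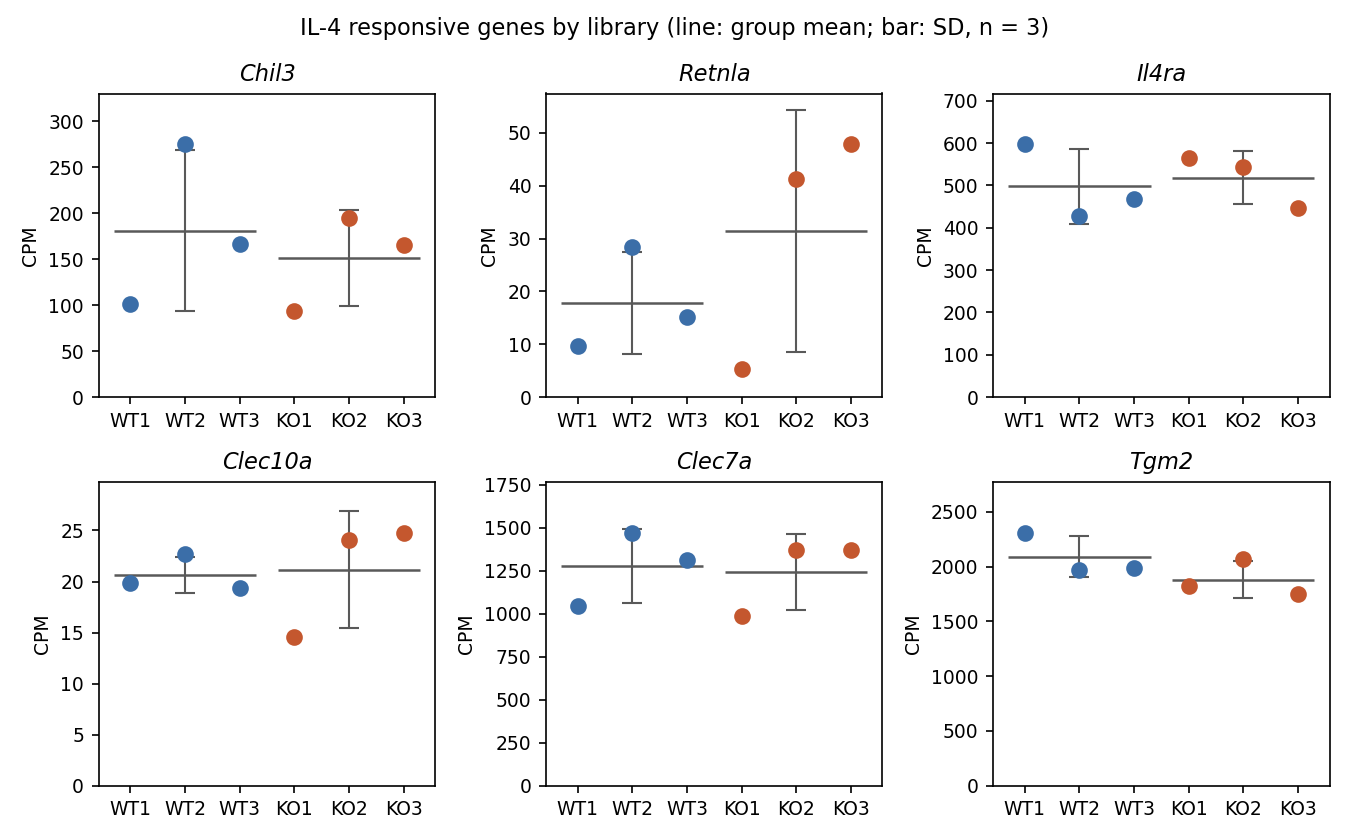
CPM (vertical axes, from 0) of each gene in the 3 WT libraries (blue) and the 3 KO libraries (orange); horizontal lines are group means and bars are SD (n = 3). Points of the groups overlap in every panel, and KO1 (KO replicate 1) is the lowest point for Chil3, Retnla, Clec10a and Clec7a.

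Il4ra, the receptor chain (NCBI Gene 16190, chromosome 7, 125552120 to 125579474, plus strand, GRCm38), was at 598, 428 and 469 CPM in WT replicates 1 to 3 and at 564, 542 and 447 CPM in KO replicates 1 to 3. WT replicate 1 was highest and WT replicate 2 lowest, so the KO values fell inside the WT range. The means were 498 ± 88.6 CPM in WT against 518 ± 62.6 CPM in KO (SD, n = 3 each), with a log2 fold change of 0.056 (SE 0.135, edgeR adjusted p = 0.938). The 95% interval of the fold ran from 0.841 to 1.29. The sign turned without WT replicate 2 (log2 -0.035) or without KO replicate 1 (-0.011).

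Chil3 (NCBI Gene 12655, chromosome 3, 106147554 to 106167564, minus strand) was at 102, 275 and 167 CPM in the WT libraries and at 93.3, 195 and 165 CPM in the KO libraries. Replicate 1 of each group was the lowest of its group, and WT replicate 2 was the highest of all. The means were 181 ± 87.8 CPM in WT against 151 ± 52.3 CPM in KO, and the log2 ratio of KO to WT was -0.26 (SE 0.39, edgeR adjusted p = 0.894), with an interval of the fold from 0.442 to 1.58. Without WT replicate 2 the log2 value was 0.17. Monocytes also make Chil3, and the 6 monocyte markers summed to 375 to 405 CPM in WT and 381 to 494 CPM in KO. The 6 fibroblast markers were at 201, 317 and 222 CPM in WT against 198, 231 and 292 CPM in KO, with Col3a1 the highest of them in every library. Col3a1 was also found as the gene nearest to Chil3 in course, so its likeness to Chil3 is no separate observation. Of the other 5, Col1a2 was at 58.6, 65.5 and 55.3 CPM in WT against 56.2, 47.2 and 70.5 CPM in KO. Dcn was at 23.1, 41.5 and 30.6 against 30.7, 25.5 and 43.7 CPM, and Col1a1 at 23.8, 13.6 and 10.1 against 8.41, 16.8 and 12.6 CPM. Pdgfra was at 4.23, 7.26 and 6.78 against 6.02, 2.83 and 8.13 CPM, and Lum at 0 to 0.306 CPM over the 6 libraries. The part of either cell type in the Chil3 values was not tested.

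Retnla (NCBI Gene 57262, chromosome 16, 48842551 to 48844461, plus strand), whose promoter carries the adjoining STAT6 and C/EBP matches, was at 9.75, 28.4 and 15.1 CPM in the WT libraries and at 5.35, 41.3 and 47.9 CPM in the KO libraries. KO replicates 2 and 3 were above every WT library and KO replicate 1 was below every WT library, so the KO values enclosed the WT values. These levels rest on 191, 564 and 303 reads counted for WT against 103, 786 and 971 for KO. The means were 17.8 ± 9.62 CPM in WT against 31.5 ± 22.9 CPM in KO, and the log2 ratio of KO to WT was 0.83 (SE 0.733, edgeR adjusted p = 0.83). Its interval of the fold, 0.529 to 5.95, was the widest of the 6. Leaving out KO replicate 1 gave a log2 value of 1.33 (unadjusted p = 0.00708, edgeR adjusted p = 0.949), and leaving out KO replicate 3 gave 0.38.

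**Figure D2:**
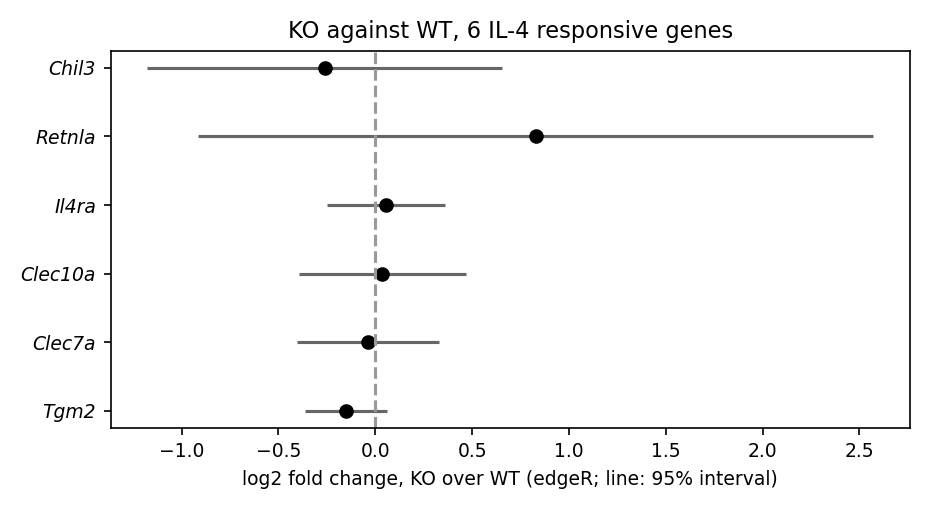
Log2 fold change of KO over WT for each gene (points) with its 95% interval from the edgeR fit (lines). All 6 intervals include 0, from the narrow interval of Tgm2 to the interval of Retnla, which reaches from -0.92 to 2.57.

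The lectin receptors Clec10a and Clec7a showed no detectable difference either. Clec10a encodes MGL1, a receptor for galactose-type sugars (NCBI Gene 17312, chromosome 11, 70156197 to 70170834, plus strand). It was at 19.9, 22.7 and 19.3 CPM in WT and at 14.5, 24.1 and 24.8 CPM in KO, so the 3 WT libraries lay together, with KO replicate 1 below them and KO replicates 2 and 3 above. The log2 ratio of KO to WT was 0.035 (SE 0.189, edgeR adjusted p = 0.972), with an interval of the fold from 0.76 to 1.38. Its sign turned without WT replicate 3 (log2 -0.0098), KO replicate 2 (-0.068) or KO replicate 3 (-0.095).

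Clec7a encodes Dectin-1, a receptor for fungal beta-glucans (NCBI Gene 56644, chromosome 6, 129461591 to 129472779, minus strand). It was at 1044, 1471 and 1311 CPM in WT and at 987, 1372 and 1368 CPM in KO. Replicate 1 was again the lowest of each group, and the other 4 libraries lay between 1311 and 1471 CPM. The log2 ratio of KO to WT was -0.038 (SE 0.159, edgeR adjusted p = 0.961), with an interval of the fold from 0.757 to 1.25. Without WT replicate 2 the log2 value was 0.082, and without KO replicate 1 it was 0.10.

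Tgm2, transglutaminase 2, crosslinks proteins inside and outside the cell (NCBI Gene 21817, chromosome 2, 158116402 to 158146436, minus strand). It was at 2311, 1972 and 1992 CPM in WT and at 1821, 2074 and 1754 CPM in KO. KO replicate 2 lay above WT replicates 2 and 3, which left the groups overlapping. The means were 2092 ± 190.3 CPM in WT against 1883 ± 169 CPM in KO, and the log2 ratio of KO to WT was -0.15 (SE 0.0952, edgeR adjusted p = 0.77). This was the smallest unadjusted p of the 6 (0.142), at rank 2234 of the 12136 genes. The interval of the fold, 0.777 to 1.04, was the narrowest. The log2 value was -0.074 without WT replicate 1 and -0.23 without KO replicate 2 (unadjusted p = 0.0487, edgeR adjusted p = 0.814). Endothelial cells also express Tgm2, and the 6 endothelial markers summed to 61.3 to 72.1 CPM in WT and 65.1 to 88.7 CPM in KO. Most of this sum was Pecam1 (48.9 to 73.1 CPM over the 6 libraries), followed by Vwf (5.46 to 9.98). Cdh5 was at 0.857 to 2.6 CPM, Kdr at 0.892 to 3.27, Tek at 0 to 0.208 and Cldn5 at 0 to 0.199. The part of endothelial cells in the Tgm2 values was not tested. Tgm2 overlaps Rprd1b on the opposite strand in the GENCODE annotation, at 457 to 495 counts per library against 35062 to 45302 for Tgm2, and the sources used here do not give the strand setting of the counting.

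Per kilobase of exon, where levels of different genes can be set side by side, Clec7a had the highest mean in both groups, at 483 ± 81.7 CPM per kb in WT and 471 ± 83.9 in KO. Tgm2 followed at 454 ± 41.3 CPM per kb in WT and 409 ± 36.6 in KO. The order of these neighbours depended on the library. Tgm2 was above Clec7a in WT replicate 1 (502 against 396) and KO replicate 1 (395 against 374), and below it in the others. Chil3 was at 111 ± 53.8 CPM per kb in WT and 92.7 ± 32.1 in KO, and Il4ra at 83 ± 14.8 and 86.3 ± 10.4. Il4ra was above Chil3 in the same libraries, WT replicate 1 (99.6 against 62.2) and KO replicate 1 (94 against 57.2), and below it in the others. Retnla stood at 29.6 ± 16.1 CPM per kb in WT and 52.6 ± 38.2 in KO, and in KO replicate 1 it was at 8.93. Clec10a was lowest, at 7.12 ± 0.616 CPM per kb in WT and 7.29 ± 1.98 in KO.

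The 6 genes differed widely in how far libraries of one genotype lay apart. Among 8576 genes with a mean of at least 10 CPM, Retnla had the largest SD of log2 CPM within groups (1.35, pooled over WT and KO, where the median gene had 0.112). Chil3 ranked 9 from the top (0.64), Clec10a 333 (0.32), Clec7a 597 (0.26), Il4ra 1032 (0.22) and Tgm2 3398 (0.13). Within KO alone the highest library of Retnla was 8.95-fold above the lowest, and within WT 2.92-fold. The corresponding folds for Chil3 were 2.09 in KO and 2.71 in WT, and those for Tgm2 were 1.18 and 1.17.

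**Figure D3:**
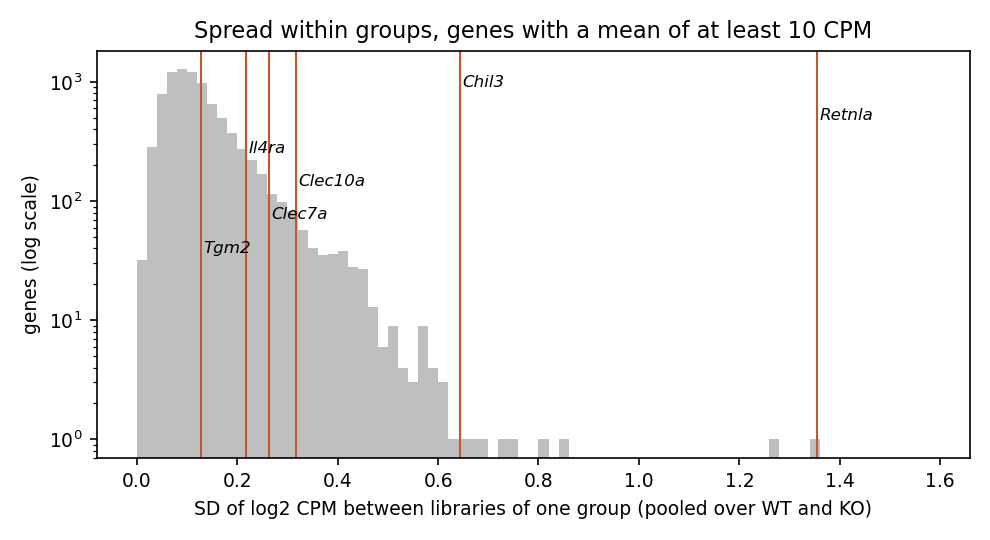
Histogram of the SD of log2 CPM between libraries of one group (horizontal axis; pooled over WT and KO) for 8576 genes with a mean of at least 10 CPM, with the number of genes on a log axis and the 6 genes as vertical lines. Retnla lies at the far right end (1.35) and Chil3 in the sparse tail (0.64), while Tgm2 (0.13) lies close to the median (0.112).

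KO replicate 1 was the lowest of the 6 libraries for Chil3, Retnla, Clec10a and Clec7a, 4 of the 6 genes. Of all tested genes 20% were lowest in that library. Relative to its own mean over the 6 libraries, Retnla stood at -1.80 in KO replicate 1 and -0.94 in WT replicate 1 on the log2 scale, Chil3 at -0.74 and -0.61, and Clec7a at -0.34 and -0.25. Clec10a was at -0.50 and -0.048. In these 2 libraries Il4ra ran the other way, at 0.16 and 0.25, above its mean where these 4 genes were below theirs. In KO replicate 2, though, Il4ra (0.11) was above its mean together with Retnla (1.13), Chil3 (0.33), Clec7a (0.14) and Clec10a (0.23). Tgm2 was above its mean in WT replicate 1 (0.22) and below it in KO replicate 1 (-0.12). Library totals of KO replicate 1 (18839026) and WT replicate 1 (19622763) were the lowest of their groups, and every level is given relative to its total.

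**Figure D4:**
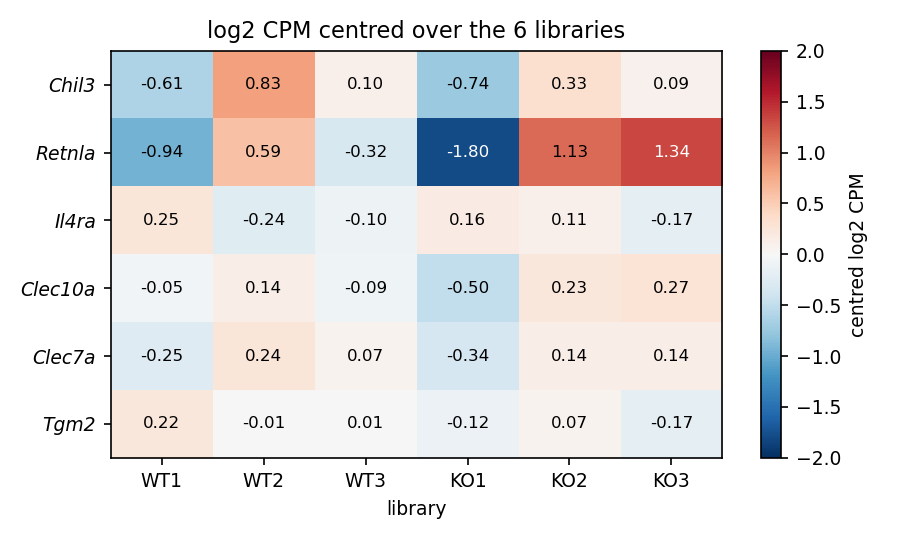
Log2 CPM of each gene (rows) in each library (columns), as the difference from the mean of that gene over the 6 libraries; red is above and blue below that mean. Retnla, Chil3, Clec7a and, in WT1 only slightly, Clec10a are below their means in WT1 and KO1, where Il4ra is above its mean. In KO2 Il4ra and these genes are all above their means. The columns do not split by genotype.

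For each gene the 2 genes with the most similar course over the 6 libraries were found among genes of at least 10 CPM, by the root mean square difference of centred log2 CPM. For Chil3 they were the collagen gene Col3a1 (0.23, where the median over 8575 genes was 0.55) and the cationic amino acid transporter gene Slc7a2 (0.24). Slc7a2 was at 617, 1103 and 875 CPM in WT against 585, 878 and 735 CPM in KO. For Retnla they were Flt1, a VEGF receptor gene (0.61, median 1.13), and the peptide transporter gene Slc15a2 (0.71). Flt1 was at 12.5, 19.1 and 13.8 CPM in WT against 4.93, 17 and 19.8 CPM in KO, low in the same KO library as Retnla. Clec7a ran closest to Itgax, which encodes the integrin CD11c (0.064, median 0.24), and to Chpf (0.069). The nearest genes of Clec10a were Mgst1 (0.094) and Map4k1 (0.10), of Il4ra Fam53b (0.029) and Pqlc2 (0.047), and of Tgm2 the pleckstrin gene Plek (0.028) and Bmyc (0.032).

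The ligands of the pathway were barely detected in these libraries. Il4 had 0 counts in the 3 WT libraries and 0, 10 and 1 counts in the KO libraries, and Il13 had 0, 0 and 6 in the WT libraries against 0, 5 and 2. The 10 Il4 counts (0.525 CPM) fell in KO replicate 2, the library with the highest sum of T and NK cell markers. The source of these few counts was not tested. Of 8 eosinophil markers 7 had a mean under 1 CPM, and of 8 mast cell and basophil markers also 7, with sums of 1.01 to 3.73 and 3.16 to 8.43 CPM over the 6 libraries. Whether these cells bear on the values of the 6 genes was not tested.

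Of the 17 genes of interleukin 4 receptor signalling other than Il4ra, 14 were tested, and with edgeR 0 passed. The receptor partners Il2rg (204 ± 10.8 CPM in WT, 192 ± 29.6 in KO) and Il13ra1 (111 ± 1.62 and 112 ± 2.15), the kinases Jak1 (log2 -0.033, SE 0.0646), Jak3 (0.11, SE 0.0929) and Tyk2 (0.071, SE 0.0949), and the transcription factor Stat6 (227 ± 14.4 and 236 ± 13.5 CPM, log2 0.057, SE 0.0767) all had edgeR adjusted p values of 0.819 or more. Irs2, an adaptor protein that interleukin 4 receptors engage, was at 167, 210 and 194 CPM in WT against 267, 266 and 199 CPM in KO (log2 0.36, SE 0.127, edgeR adjusted p = 0.701). It was the 1 tested gene of this list with an unadjusted p under 0.05 (7.14% of the 14, against 6.92% of all tested genes). The feedback inhibitors Socs1 (29.4 ± 3.54 CPM in WT, 29.3 ± 9.3 in KO) and Cish (71.3 ± 4.77 and 62.5 ± 9.63) did not pass, nor did Jak2 (log2 -0.18, SE 0.107). The sign of Tyk2 turned without KO replicate 2 (log2 -0.042).

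Other genes that interleukin 4 induces were also tested, 19 of 19, and 0 passed with edgeR. Arg1, arginase 1, was at 5661, 6727 and 5625 CPM in WT against 6598, 6240 and 6362 CPM in KO (log2 0.092, SE 0.0911, edgeR adjusted p = 0.843), and Mrc1, the mannose receptor CD206, at 1486 ± 54.1 and 1440 ± 142 CPM. The chemokines Ccl17 (7.31 ± 2.73 and 11.4 ± 5.2 CPM), Ccl22 (17.7 ± 3.93 and 20 ± 11.2) and Ccl24 (43.9 ± 8.66 and 41.6 ± 17.6) and the checkpoint ligand gene Pdcd1lg2 (83 ± 13 and 60.4 ± 23.1) did not pass. Pdcd1lg2 was lowest in KO replicate 1, at 33.8 CPM against 70.2 to 96.2 CPM in the others. Of these 19 genes 8 (42.1%) were lowest in KO replicate 1 and 7 in WT replicate 1, against 20% and 20.5% of all tested genes. Cd200r1 (log2 0.29, SE 0.139), an inhibitory receptor of myeloid cells, and the kinase gene Matk (0.41, SE 0.209) did not pass.

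Unadjusted p values under 0.05 occurred for 2 of these 19 genes (10.5%, against 6.92% of all tested genes), both with negative log2 values. The groups did not overlap in 10.5% of the 19, against 12.4% of all tested genes. Il1rn, the antagonist of the interleukin 1 receptor, was at 1501, 1351 and 1288 CPM in WT against 1080, 1234 and 1175 CPM in KO, without overlap (log2 -0.25, SE 0.0863, edgeR adjusted p = 0.701). Rnase2a, a secreted ribonuclease of the eosinophil-associated family, had 78, 63 and 60 counts in WT against 4, 24 and 20 in KO, also without overlap (log2 -2.04, SE 0.45, edgeR adjusted p = 0.694, DESeq2 adjusted p = 0.00576). Of the 8 eosinophil markers, Siglecf had 12, 12 and 14 counts in WT against 15, 55 and 25 in KO, without overlap and in the opposite direction to Rnase2a (log2 1.34, SE 0.499, edgeR adjusted p = 0.703), and Ccr3 had 8 to 21 counts per library. The other 6 were at 3 counts or less in every library. The part of eosinophils in the Rnase2a values was not tested. Rnase2a belongs to a family of related genes, whose identity to it was not measured here. The counting may divide reads among them, so its value is uncertain.

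Among 12 regulators of alternative activation, all tested, 0 passed with edgeR and 1 (8.33%, against 6.92% of all tested genes) had an unadjusted p under 0.05. That 1 was Cebpb, a transcription factor of the C/EBP family whose motif stands in the Retnla promoter, at 523, 699 and 554 CPM in WT against 683, 762 and 749 CPM in KO (log2 0.31, SE 0.11, edgeR adjusted p = 0.701). Klf4, a transcription factor that cooperates with STAT6, was at 636, 1487 and 1095 CPM in WT against 1479, 1727 and 1469 CPM in KO (log2 0.54, SE 0.263, edgeR adjusted p = 0.725). Values for the other regulators were 12.2 ± 1.8 and 15.2 ± 6.53 CPM for Irf4, 1.83 ± 0.19 and 1.46 ± 0.164 CPM for the lipid-sensing receptor gene Pparg, 591 ± 64 and 502 ± 97.2 CPM for the histone demethylase gene Kdm6b, and 242 ± 40.2 and 260.4 ± 42.7 CPM for Egr2 (WT and KO in each pair). Of the 12 regulators 3 were lowest in KO replicate 1, 5 in WT replicate 1 and 4 in KO replicate 3.

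In the Dectin-1 pathway downstream of Clec7a and its companion receptors, 11 of 11 genes were tested and 0 passed with edgeR. The kinase Syk (438 ± 3.82 CPM in WT, 470.1 ± 57.9 in KO) and the adaptor Card9 (66 ± 7.06 and 77.4 ± 14.3) did not differ detectably. The neighbouring receptors Clec4e, or Mincle, and Clec4d each had an unadjusted p under 0.05 and no overlap between groups, in opposite directions. They are 18.2% of the 11, where 6.92% of all tested genes had such a p and 12.4% did not overlap. Clec4e was at 433, 287 and 320 CPM in WT against 215, 262 and 262 CPM in KO (log2 -0.49, SE 0.153, edgeR adjusted p = 0.701), and Clec4d at 240, 231 and 215 CPM in WT against 262, 255 and 265 CPM in KO (log2 0.19, SE 0.0695, edgeR adjusted p = 0.702). Clec4n, Dectin-2, had a log2 value of 0.13 (SE 0.0986).

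Relatives of the 6 genes matter because reads of near copies can be divided between them. Chil4, 33.9 kb from Chil3 and 94.3% identical to it over 1540 aligned transcript bases, had 1, 3 and 0 counts in the WT libraries against 0 in each KO library. Retnlg, 82.8% identical to Retnla over 599 bases, was at 1.85 ± 1.14 CPM in WT against 1.51 ± 0.582 CPM in KO, and Retnlb and Retn had 1 count each over the 6 libraries. Mgl2, which encodes the lectin MGL2, lies 18.6 kb from Clec10a and is 96.7% identical to it over 704 bases. It was at 132, 219 and 172 CPM in WT against 68.3, 151 and 181 CPM in KO (log2 -0.38, SE 0.345, edgeR adjusted p = 0.832), and like Clec10a it was lowest in KO replicate 1. Its log2 value was -0.067 without KO replicate 1 and -0.67 without KO replicate 3. How reads that match several genes were treated is not given in the sources used here, and the division of reads between Clec10a and Mgl2 and between Chil3 and Chil4 is uncertain.

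Of 22 relatives 9 were tested and 0 passed with edgeR. An unadjusted p under 0.05 was reached by 22.2% of the 9, against 6.92% of all tested genes. The groups did not overlap in 22.2% of the 9, against 12.4%. Tgm1, a transglutaminase related to Tgm2, was at 15.7, 16.6 and 18.1 CPM in WT against 22.5, 22.7 and 22.3 CPM in KO (log2 0.42, SE 0.0966, edgeR adjusted p = 0.694), without overlap and with the opposite sign of Tgm2. The transglutaminase F13a1, the A subunit of coagulation factor XIII, was at 404 ± 52 CPM in WT against 430 ± 126 CPM in KO. Olr1, the lectin receptor LOX-1 encoded 12.5 kb from Clec7a, was at 50.6, 38.2 and 40.1 CPM in WT against 24.6, 37.2 and 26 CPM in KO (log2 -0.56, SE 0.172, edgeR adjusted p = 0.701). Clec12a (181 ± 11.1 and 169 ± 35.4 CPM) and Clec9a (3.13 ± 1.31 and 2.07 ± 0.616 CPM), from the same gene cluster, did not pass.

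**Figure D5:**
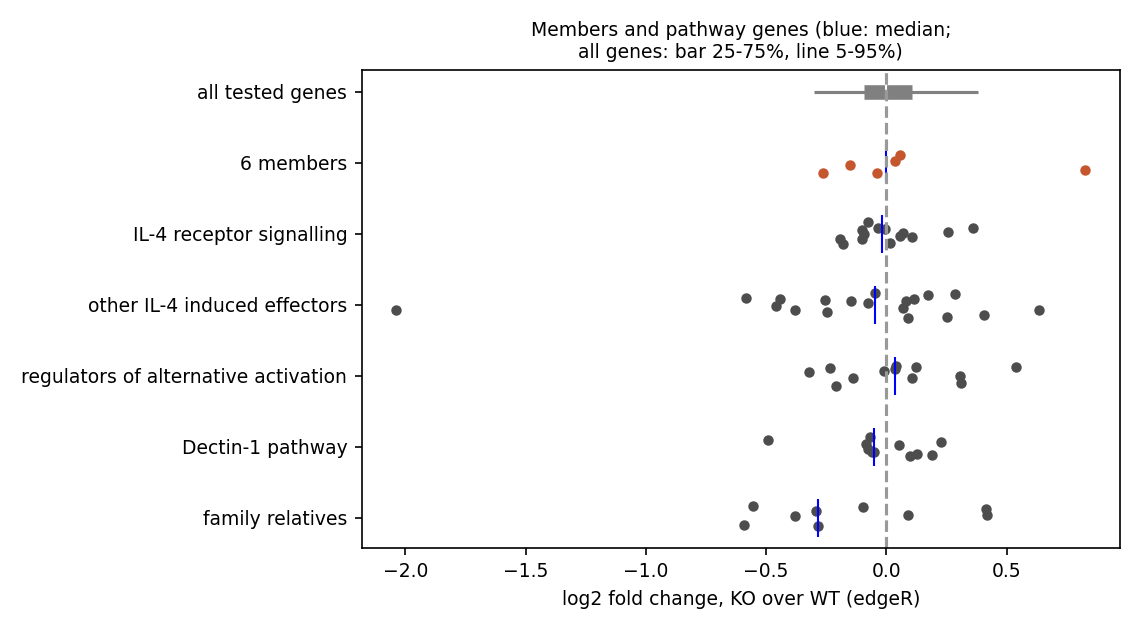
Log2 fold change of KO over WT (horizontal axis) for the 6 genes (orange) and for the tested genes of 5 related lists (grey), with the median of each as a blue mark; the grey bar and line show the 25th to 75th and 5th to 95th percentiles of all 12136 genes. The medians lie near 0 (-0.052 to 0.038) except for the 9 tested relatives (-0.28), and Rnase2a lies alone at -2.04. The median of the relatives is the value of Clec1b, a gene with only 7 to 27 counts per library (SE 0.496).

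Over the 5 lists together, 64 genes were tested, 30 of them with a log2 value above 0 and 34 with one below 0, and the median was -0.021. With edgeR 0 passed, and DESeq2 called 1, Rnase2a. An unadjusted p under 0.05 was reached by 4 genes on the higher side, where 3.86% of all tested genes did, and by 4 on the lower side, where 3.06% did. Together they are 12.5% of the 64, against 6.92% of all tested genes. In 6 of the 64 genes (9.38%) the groups did not overlap, against 12.4% of all tested genes. KO replicate 1 was the lowest library for 26 of the 64 (40.6%) and WT replicate 1 for 20 (31.2%), where all tested genes gave 20% and 20.5%. KO replicate 2 was lowest for 0 of the 64 and for 20.6% of all tested genes.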

How the data were processed

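Gene counts of 6 libraries of sorted mouse tumour macrophages were used (3 WT, 3 KO), grouped by their titles. Per the labels, a mirVana kit served for RNA extraction and a TruSeq stranded mRNA kit for the libraries. The deposited table holds unnormalized read counts for each gene, and the submitters' processing notes name Trimmomatic, HISAT2, Cufflinks, HTSeq and mm10 without versions or roles. The annotation, the strand setting and the handling of multiply mapped reads are not given in the sources used here.

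KO was compared with WT in edgeR 4.0.16 (R 4.3.3): filterByExpr (minimum count 10, minimum total 15), TMM factors, a robust quasi-likelihood fit with genotype as the only term, and Benjamini-Hochberg adjustment over 12136 genes at 0.05. The SE is the one implied by the F statistic, and 95% intervals use its degrees of freedom. Centred values use log2 CPM with a prior count of 2. Exon lengths and positions came from GENCODE M21 on GRCm38, the assembly of mm10, promoters from RefSeq on GRCm38.p6, and transcript identities from blastn 2.17.0. The fit was tested on simulated counts.

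The 6 genes and the lists were chosen with earlier results of these data known. Named genes are the 6, Trmt61a, a set of pathway genes and up to 4 genes of smallest p per list. Relatives of at least 1 CPM and the 2 nearest genes per member were named as well. Il4, Il13, Chil4, Retn, Retnlb, Clec1b and Rprd1b were chosen after seeing their values. So were the single macrophage, neutrophil, dendritic cell, fibroblast, endothelial and eosinophil markers given. The alternatives tried were scaling by RLE factors, by upper quartiles or by library totals, 2 other filters, DESeq2 1.42.0, limma-voom (limma 3.58.1), no robust shrinkage, a replicate block, and each library left out.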

Additional observations from a re-analysis of the deposited data

How the results depend on the processing

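The 6 genes gave 90 values over 15 alternatives. None of these passed, with adjusted p values from 0.646 to 0.99995, and 8 had the opposite sign, each with 1 library left out. Over such omissions the log2 values ran from -0.55 to 0.17 for Chil3, -0.035 to 0.21 for Il4ra, -0.095 to 0.24 for Clec10a, -0.16 to 0.10 for Clec7a, 0.38 to 1.34 for Retnla and -0.23 to -0.074 for Tgm2. Of 38 other named genes 12 changed sign, with ranges of -0.18 to 0.030 for Il2rg, -0.042 to 0.15 for Tyk2, -0.26 to 0.20 for Socs1 (0.000235 with the CPM filter), -0.13 to 0.012 for Mrc1, -0.38 to 0.41 for Ccl22, -0.47 to 0.13 for Ccl24, -0.028 to 0.60 for Irf4, -0.026 to 0.23 for Egr2, -0.0062 to 0.15 for Syk, -0.65 to 0.27 for Retnlg, -0.20 to 0.067 for Clec12a and -0.17 to 0.26 for F13a1.

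Over all genes, 0 higher and 2 lower genes passed. DESeq2 called 8 higher and 21 lower, among the lower 1 of the other interleukin 4 induced genes (Rnase2a). The lower count was 1 with RLE factors, upper-quartile factors, library totals alone, no filter or limma-voom, 0 with a CPM of at least 1 in 3 libraries, and 0 to 2 (higher 0 to 3) with 1 library left out. The cause was not tested. Same-numbered libraries did not deviate together (Pearson r -0.057, -0.094 and -0.11), and none correlated best with its own number, so the numbers were not treated as pairs; with the replicate block 1 lower gene and 0 of the 6 genes passed. Of the 6 genes Retnla and Clec10a had the fewest counts, 103 to 971 and 280 to 503 per library.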

Other observations

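Of the 10 genes with the widest spread within groups among those of at least 10 CPM, which were looked up after their values were seen, Retnla and Chil3 were the members of the interleukin 4 set. Gbp2b, an interferon-inducible GTPase gene, came next after Retnla (SD of log2 CPM 1.27), at 41.5, 16.1 and 22.4 CPM in WT and 3.43, 21.9 and 29.6 CPM in KO. It was lowest in KO replicate 1, as Retnla was, but highest in WT replicate 1, where Retnla was at the lowest of its WT values. Flt1, the gene with the course most like that of Retnla, was 1 of the 10 as well (0.80). The measure of likeness is not scaled for spread and so favours wide genes for Retnla. The place of Flt1 among the 10 is therefore no separate observation.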
